A study of Rattus norvegicus with 36 samples.

Results

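The genes described here encode the proteins of the cytosolic ribosome. They were taken from 36 one-colour oligonucleotide arrays of rat skeletal muscle, where the source field abbreviates the muscle as "ta". A probe set was a member where its only gene symbol in the platform annotation was Rpl or Rps with a number, Rplp0 to Rplp2, or Rpsa. S6 kinases, related genes and pseudogenes were left out. The rule gave 55 probe sets of 37 genes among the 4736 genes with a symbol of their own: 25 of the large subunit, the stalk protein Rplp0, and 11 of the small subunit. Where a gene had several probe sets (15 genes), the brightest one was used. A further 39 probe sets list a ribosomal protein gene beside other symbols and were not used, and neither Rplp1, Rplp2, Rps27a nor Rps4x was among the 37.

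Titles and descriptions divide the arrays among 6 groups. Muscle collected 1 h after resisted contractions gave total RNA (2 numbers in the titles, 4 arrays) and RNA on polyribosomes, called polysomal RNA (2 numbers, 4 arrays). Muscle collected 6 h after contractions gave total RNA (4 numbers, 8 arrays) and polysomal RNA (4 numbers, 8 arrays). In 2 further groups the labels name no contractions. The first, polysomal in title and description (4 numbers, 8 arrays), is called the polysomal control. The second (2 numbers, 4 arrays) is titled 1hr polysome while its description names no polysomes, and is referred to here as the 1hr-titled control. For control muscle 1 h is the only time described, so the 6 h polysomal group and the polysomal control may also differ in collection time. The labels give no strain, age or sex, and they do not say whether numbers are separate animals, so a p-value here reflects the scatter of these samples and no more, and that scatter may be technical. Each number, the mean of its arrays, is 1 replicate, and n counts numbers.

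A cytosolic ribosome joins a small subunit, which holds the mRNA and reads its codons, to a large subunit, which forms the peptide bonds and guides the new chain out through the exit tunnel. Ribosomal protein mRNAs of mammals typically begin with a C followed by an unbroken stretch of pyrimidines, the terminal oligopyrimidine (TOP) motif. When growth signalling through the mTOR pathway is low, TOP mRNAs leave the polysomes and wait as free particles, and when it is high they are loaded again. In muscle, such shifts are known after loading and feeding.

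The start of the transcript is shown for the members on which the results turn, since it is where a TOP motif would lie. RefSeq promoter windows (build GRCr8) were matched for 34 of the 37 genes. Each window below runs from 10 bases before to 20 bases from the annotated start, 5′ to 3′ on the gene's strand, so that base 11 is the annotated first base of the transcript. Capitals mark the longest run of C and T in the window.
Rpl17 (chr18:70856266-70856295, + strand): ttcgcgCTTCCTCTTCCTgttagcggccag
Rpl35a (chr11:81235002-81235031, - strand): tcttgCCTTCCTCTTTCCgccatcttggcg
Rps24 (chr16:96507-96536, + strand): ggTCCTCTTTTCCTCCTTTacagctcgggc
Rpl18 (chr1:105325260-105325289, + strand): aCCTggtctagcaggaggcgccatcatggt
Rpl6 (chr12:41011671-41011700, - strand): TTacatcactagatggcgggtgaaaaggcg
Rpl11 (chr5:153560783-153560812, - strand): CTTgaagcttgtttggtgctggggagcatc
Rplp0 (chr12:46718371-46718400, - strand): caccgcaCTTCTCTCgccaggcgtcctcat
Rps16 (chr1:92770648-92770677, + strand): aaaatcggtcggggtggccccaagCTTTCC
The windows of Rpl17, Rpl35a, Rps24 and Rplp0 hold a long pyrimidine run across or beside the annotated start, whereas those of Rpl18, Rpl6 and Rpl11 do not. For Rps16 the marked run of 6 bases lies at the end of the window. Its longest run within 15 bases of the start was 12 bases, which the window does not show in full. On the gene's strand, a C at the annotated first base followed by at least 4 pyrimidines was found in 11 of 34 members (32.4%) and in 88 of 3203 tested genes with a window (2.75%). A pyrimidine run of at least 8 bases within 15 bases of the start was found in 25 members (73.5%) and in 535 of those genes (16.7%). A match describes these letters only, and annotated starts can lie some bases away from the true ones.

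Values are the authors' deposited signals, array intensities on a linear scale, and log2 differences between group means. Signals below a floor of 129.5 (the 40th percentile over the whole table) were raised to it. All 37 members were tested, and 34 had their brightest probe set above the floor on every array. Signals of different genes come from different probes and were not compared with each other. Ribosomal protein genes have many processed pseudogenes, so for every member some signal from near-identical transcripts is possible.

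Muscle identity and RNA quality bear on all groups. Of 10 skeletal muscle markers 8 were on the array and 7 lay above the floor on 18 or more of the arrays, with summed signals of 38699 to 312654. Macrophage markers (4 of the 5 on the array above the floor) summed to 5309 to 16293 in 6 h polysomal RNA and to 3202 to 7400 in 6 h total RNA. The ratio of the 3′ to the 5′ actin control, which climbs when RNA is fragmented or copied short, ran from 2.54 to 4.48 in 6 h polysomal RNA and from 1.01 to 1.58 in 6 h total RNA, apart from number 3 of the total group. Its arrays stood apart at 9.01 and 11.5. The 1 h medians were 3.01 for polysomal and 1.28 for total RNA. Their part in the results below was not tested. In whole muscle, fewer cells of a type and less RNA per cell cannot be told apart.

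As a list, the ribosomal protein mRNAs lay a little above the typical gene in polysomal RNA and a little below it in total RNA. The median of the 37 genes minus the median of all genes, each gene relative to its own mean over the 18 replicates, was 0.14 ± 0.16 (log2, SD, n = 4) in 6 h polysomal RNA and -0.18 ± 0.34 in 6 h total RNA. The 4 polysomal values ran from -0.10 to 0.26 and the 4 total values from -0.53 to 0.28, so both ranges overlapped. At 1 h the polysomal values were 0.43 and 0.27 and the total values -0.17 and 0.07, without overlap. The polysomal control gave 0.06 ± 0.18 (n = 4) and the 1hr-titled control -0.01 and 0.08.

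**Figure D1:**
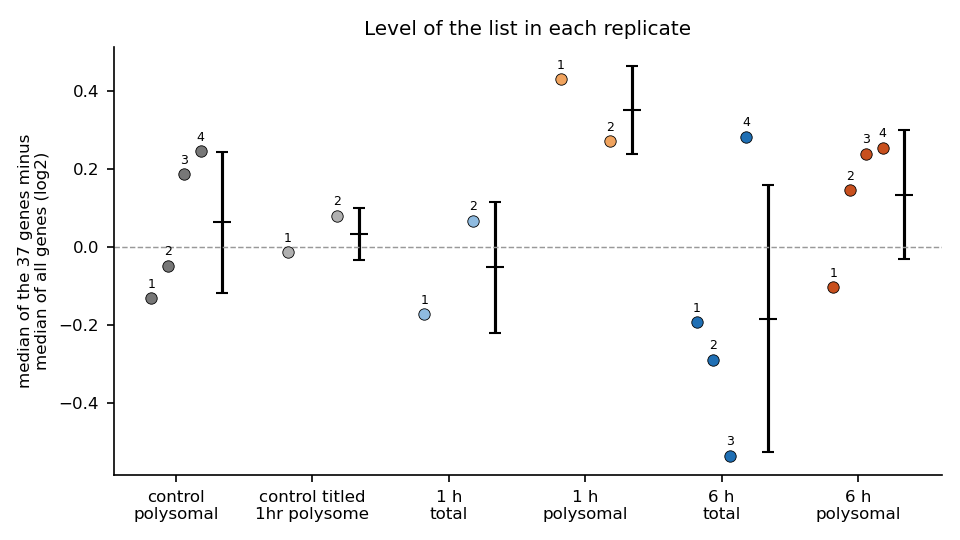
The median log2 level of the 37 ribosomal protein genes minus that of all tested genes is plotted for each replicate, with its number in the titles beside the point, and the bars give the mean ± SD of each group. Number 3 of the 6 h total group is the lowest at -0.53, and the 1 h polysomal replicates lie at 0.43 and 0.27.

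The members differed in how much they varied. Their pooled SD between replicates of a group ran from 0.16 (log2) for Rpl27 to 0.80 for Rps24, with a median of 0.35, against 0.34 for all tested genes. Rps24 had the widest span of replicate values of the 8 members drawn as strips below, at least 17.4-fold since its lowest value lay at the floor, while Rpl11 had the narrowest, 1.98-fold.

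**Figure D2:**
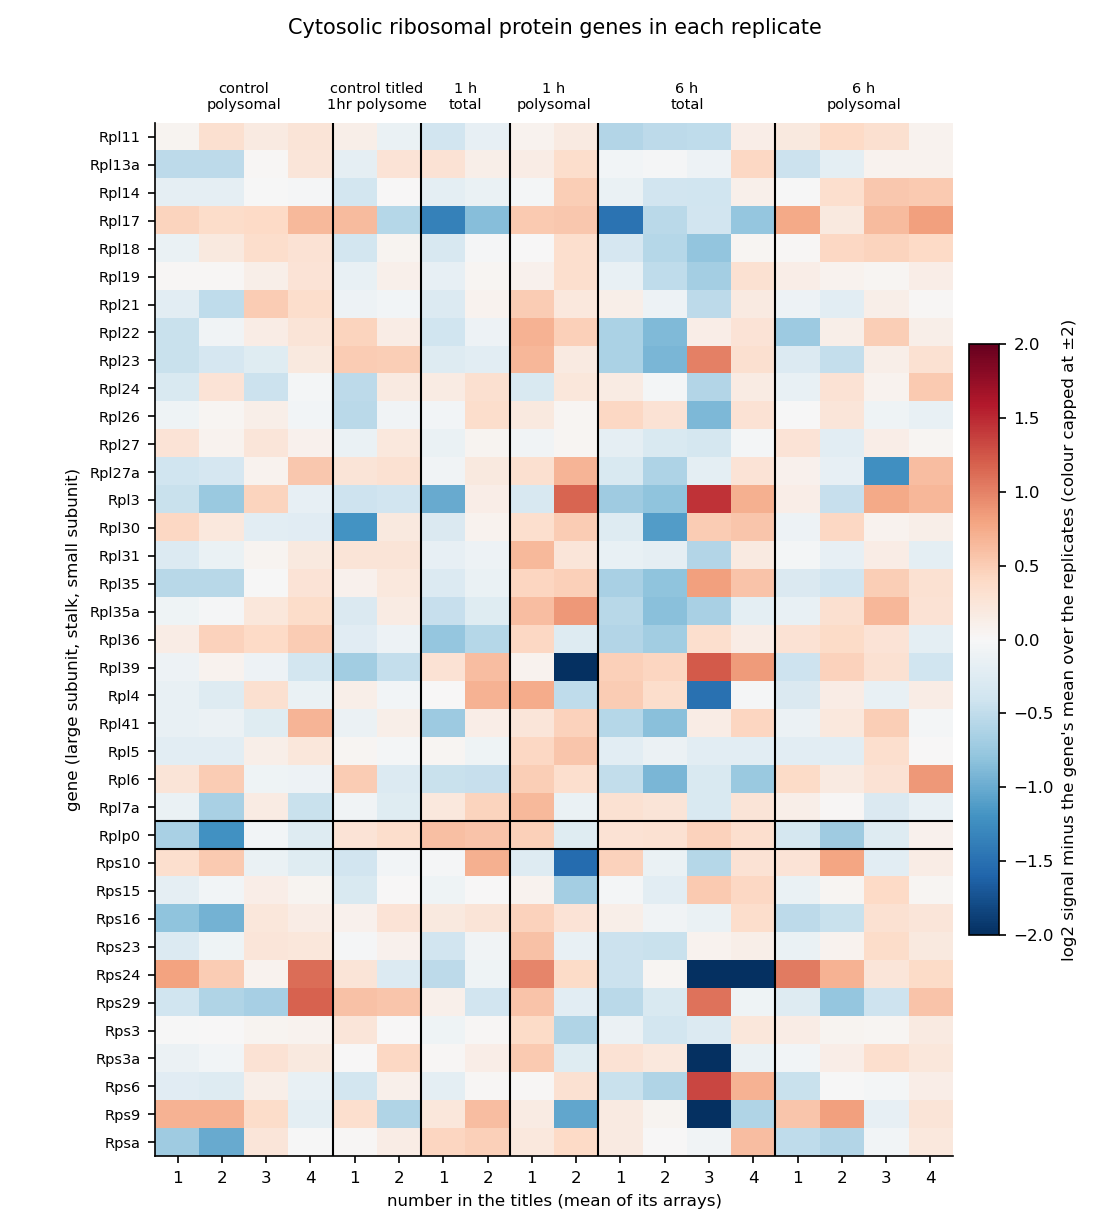
Each row is a gene and each column a replicate, and the colour gives the log2 signal minus the gene's mean over the 18 replicates, with colours capped at ±2. Rpl17, Rpl6 and Rpl35a are darker blue in both total RNA groups than in the polysomal groups, and Rplp0 shows the reverse against the 6 h polysomal group and the polysomal control.

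The main comparison asks which transcripts differ between polysomal and total RNA 6 h after contractions. Polysomal signals were higher than total signals for 6 of the 37 members and lower for none: Rps24, Rpl17, Rpl6, Rpl35a, Rpl18 and Rpl11 (limma, Benjamini-Hochberg adjusted p under 0.05). This is 16.2% of the members, against 4.38% of all 3902 tested genes called higher and 4.95% called lower. By subunit, 5 of 25 large subunit genes and 1 of 11 small subunit genes were higher. An unadjusted p under 0.05 in either direction (limma) was found for 9 members (24.3%) and 1022 genes (26.2%), so by this measure the members showed no excess. The member median was 0.20, the median of all genes -0.14, and 26 of 37 members (70.3%) against 34.2% of genes lay above 0.

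Rps24, a small subunit protein, gave polysomal signals of 2141, 1693, 1237 and 1364 and total signals of 778, 1068, 130 and 227 for numbers 1 to 4. The groups did not overlap, but the total values split into a higher and a lower pair, and number 3 lay at the floor. The log2 means were 10.62 ± 0.35 and 8.63 ± 1.44 (SD, n = 4 each), a 3.98-fold difference (log2 1.99, SE 0.51, adjusted p = 0.0295). Without number 3 of the total group the log2 difference was 1.45 (adjusted p = 0.0512).

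Rpl17, which lines the exit tunnel, gave 1320, 894, 1215 and 1375 in polysomal RNA and 282, 537, 602 and 456 in total RNA. Every polysomal value lay above every total value, with a 2.62-fold difference (log2 1.39, SE 0.26, adjusted p = 0.00671). The polysomal control, at 1061, 1010, 1030 and 1230, lay in the polysomal range. The 1 h total values of 306 and 435 lay in the range of total RNA at 6 h.

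Rpl6, a large subunit protein, gave 16039, 13854, 15028 and 22313 in polysomal RNA and 8754, 6550, 9957 and 7380 in total RNA. The groups again did not overlap (2.05-fold, log2 1.04, SE 0.21, adjusted p = 0.00963). Its dimmer probe set had the opposite sign (log2 -0.15, SE 0.30, adjusted p = 0.776), so the call rests on 1 of its 2 probe sets, and the suffix of both marks probes that can match several transcripts.

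Rpl35a, also of the large subunit, gave 5138, 7140, 9024 and 6972 in polysomal RNA and 3879, 3189, 3635 and 5015 in total RNA. The lowest polysomal value lay just above the highest total value (1.79-fold, log2 0.84, SE 0.19, adjusted p = 0.0172). Rpl35a is known for mutations that cause Diamond-Blackfan anaemia, as is Rps24.

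The remaining called genes overlapped between fractions. For Rpl18 the polysomal values were 6570, 8604, 8795 and 8556 and the total values 5122, 4355, 3765 and 6655 (1.66-fold, log2 0.73, SE 0.19, adjusted p = 0.0292). For Rpl11, which joins Rpl5 and the 5S RNA in the particle that can bind Mdm2 when ribosome assembly is disturbed, they were 11400, 13241, 12516 and 10489 against 6672, 6925, 7005 and 10941 (1.54-fold, log2 0.62, SE 0.16, adjusted p = 0.0285). In both genes number 4 of the total group lay inside the polysomal range, and the 3 others lay below it. The second Rpl11 probe set had the same sign (log2 0.74, SE 0.56, adjusted p = 0.412).

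**Figure D3:**
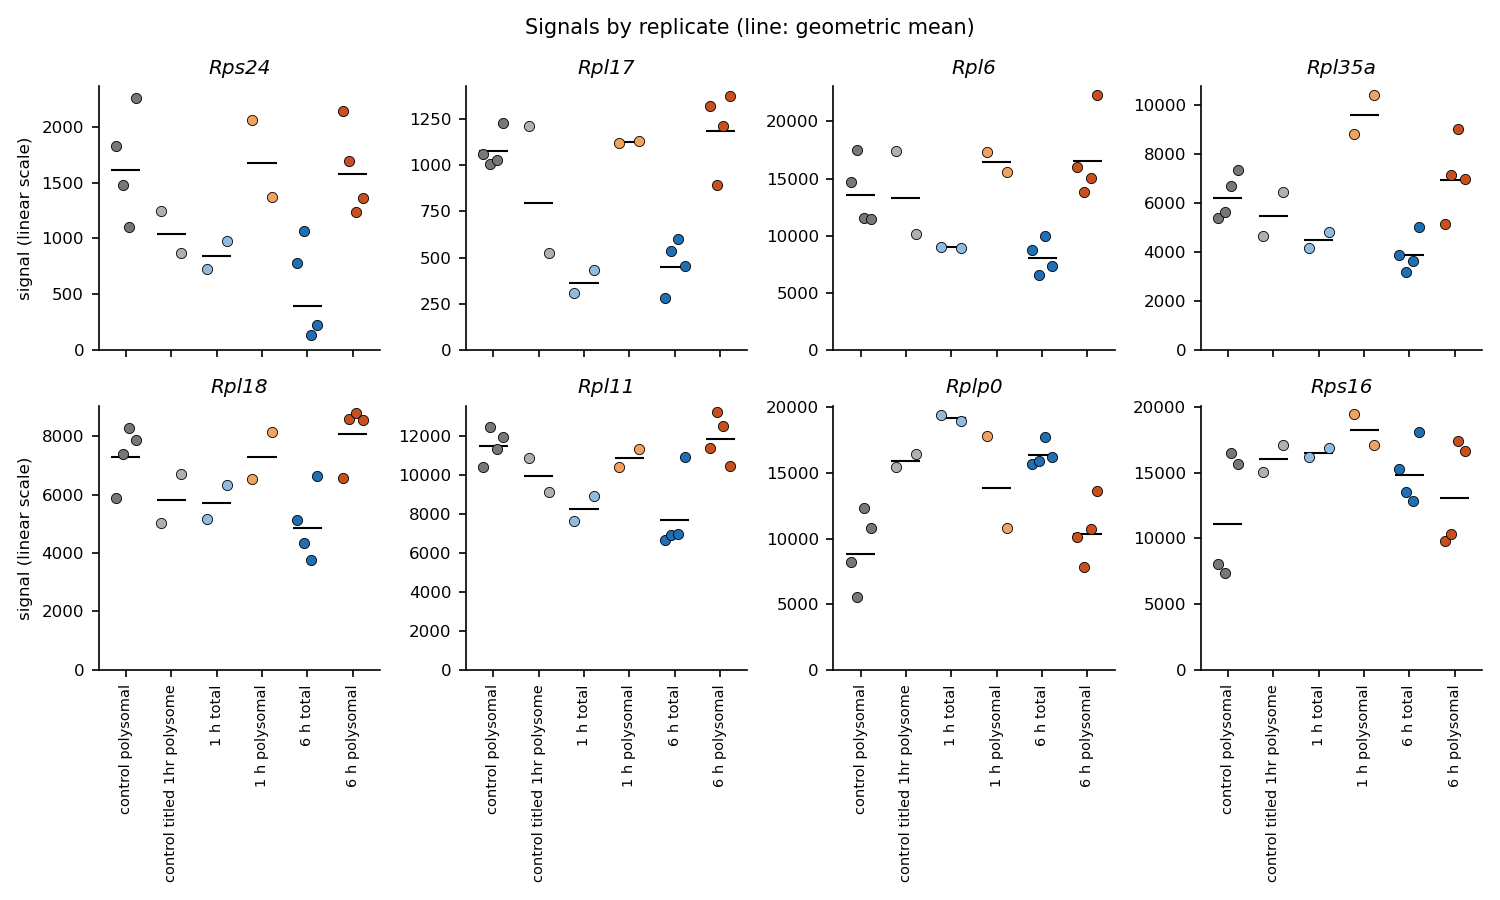
Signals of 8 members are plotted for every replicate on linear axes from 0, by group, with a line at the geometric mean. For Rps24, Rpl17, Rpl6 and Rpl35a the 4 polysomal points at 6 h lie above the 4 total points, and for Rplp0 they lie below.

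Among members that did not pass, the highest were Rps9 (log2 1.05, SE 0.47, adjusted p = 0.168; 0.50, SE 0.35, without number 3 of the total group) and the lowest were Rpl39 (-0.75, SE 0.37, adjusted p = 0.211), Rplp0 and Rpsa (-0.42, SE 0.26, adjusted p = 0.316). Rplp0 is the base of the stalk that recruits translation factors. It gave 10105, 7863, 10701 and 13659 in polysomal RNA and 15654, 15950, 17728 and 16245 in total RNA, so all 4 polysomal values lay below all 4 total values (log2 -0.66, SE 0.23, adjusted p = 0.0921). Rps6, the small subunit protein phosphorylated by S6 kinase, differed by -0.34 (SE 0.33, adjusted p = 0.528), and Rpl5, which lay at or near the floor, by 0.17 (SE 0.15, adjusted p = 0.473). All 4 polysomal numbers lay above all 4 total numbers for 4 members, against 5.15% of genes, and below them for 1 member, Rplp0, against 7.38% of genes.

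The counts depend on single libraries, for the members and for all genes, of which 9.33% were called in the main fit. Without number 3 of the polysomal group 2 members were called (4.48% of genes) and without number 2 of it 3 (3.84%). Without number 3 of the total group 4 were called (9.28%). The fit over numbers 1 and 2 alone called 3 members (14.2% of genes) and that over numbers 3 and 4 alone called 0 (0% of genes). All 6 called members kept a positive difference under every alternative in which they were measured. Rpl17 passed in 17 of 19 alternatives, Rpl6 in 16 of 18, Rpl35a in 16 of 19, Rpl18 in 12, Rps24 in 11 and Rpl11 in 10 of 19. Rpl17, Rpl35a, Rpl18 and Rps24 each have 1 probe set. For them the alternatives in the choice of probe set only repeat the difference of the main fit. The tallies of these genes are therefore not comparable with those of Rpl6 and Rpl11. Under the deposited scaling the median difference of all genes was -0.14 in this comparison. Quantile normalization moved that to -0.02 and scaling to the 75th percentile to -0.04, which turned the split of called genes from 171 higher and 193 lower to 210 and 100, and 219 and 88. The members stayed one-sided, at 5 and 7 higher and 0 lower. Under the deposited scaling, the all-gene median of number 3 of the total group was 0.27, relative to each gene's mean over the replicates. Numbers 1, 2 and 4 of that group gave 0.02, -0.02 and -0.06, and the polysomal numbers -0.10 to 0.01. The source of the shift was not tested.

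At 1 h after contractions no member passed in the same comparison, with 2 numbers a group. Of all genes 0.333% were called. Unadjusted p lay under 0.05 for 8 members (21.6%) and for 15.7% of genes (limma). The member median was 0.35 and that of all genes -0.04, and 26 members lay above 0. The highest were Rpl17, Rpl35a and Rps24, and the lowest Rpl39, Rps10 and Rps9.

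Rpl17 gave 1119 and 1132 in polysomal RNA and 306 and 435 in total RNA (log2 1.63, SE 0.37, adjusted p = 0.0703). Rpl35a gave 8814 and 10429 against 4177 and 4836 (log2 1.09, SE 0.27, adjusted p = 0.0858). In both genes the polysomal pair lay above the total pair without overlap. The arrays of this time point are separate from those at 6 h, and all 6 members called at 6 h had a positive difference here, 3 of them with an unadjusted p under 0.05. The same was true of 164 of the 171 genes called higher at 6 h (95.9%), 94 of them with an unadjusted p under 0.05. The median difference of the 6 members was 0.94 at 6 h and 0.93 at 1 h, and that of the 171 genes 1.10 and 0.73. These values are those of the brightest probe sets. At 1 h the dimmer probe sets of Rpl6 (log2 -0.71, SE 0.43) and Rpl11 (log2 -0.46, SE 0.80) had the opposite sign.

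Both polysomal numbers lay above both total numbers for 19 members, against 21% of genes, and below them for 5, against 27.8% of genes. The 5 were Rpl39, Rplp0, Rps10, Rps9 and Rpsa. In Rpl39, a short exit tunnel protein, the polysomal values were 6552 and 1325 and the total values 7618 and 9521 (log2 -1.53, SE 0.53, adjusted p = 0.17). Rps10 gave 3259 and 1339 against 3830 and 6373 (log2 -1.24, SE 0.45, adjusted p = 0.184). In Rps9 the values were 11297 and 4927 against 11843 and 15465 (log2 -0.86, SE 0.67, adjusted p = 0.605). The low value of number 2 came from its array 2a in all 3 genes. Rpl39 gave 280.0 on array 2a and 6275 on array 2b, Rps10 gave 424.0 and 4229, and Rps9 gave 2207 and 10998. Without array 2a, an alternative chosen after seeing the data, the differences were -0.41 (SE 0.32) for Rpl39, -0.41 (SE 0.39) for Rps10 and -0.28 (SE 0.63) for Rps9, and 31 of 37 members lay above 0.

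**Figure D4:**
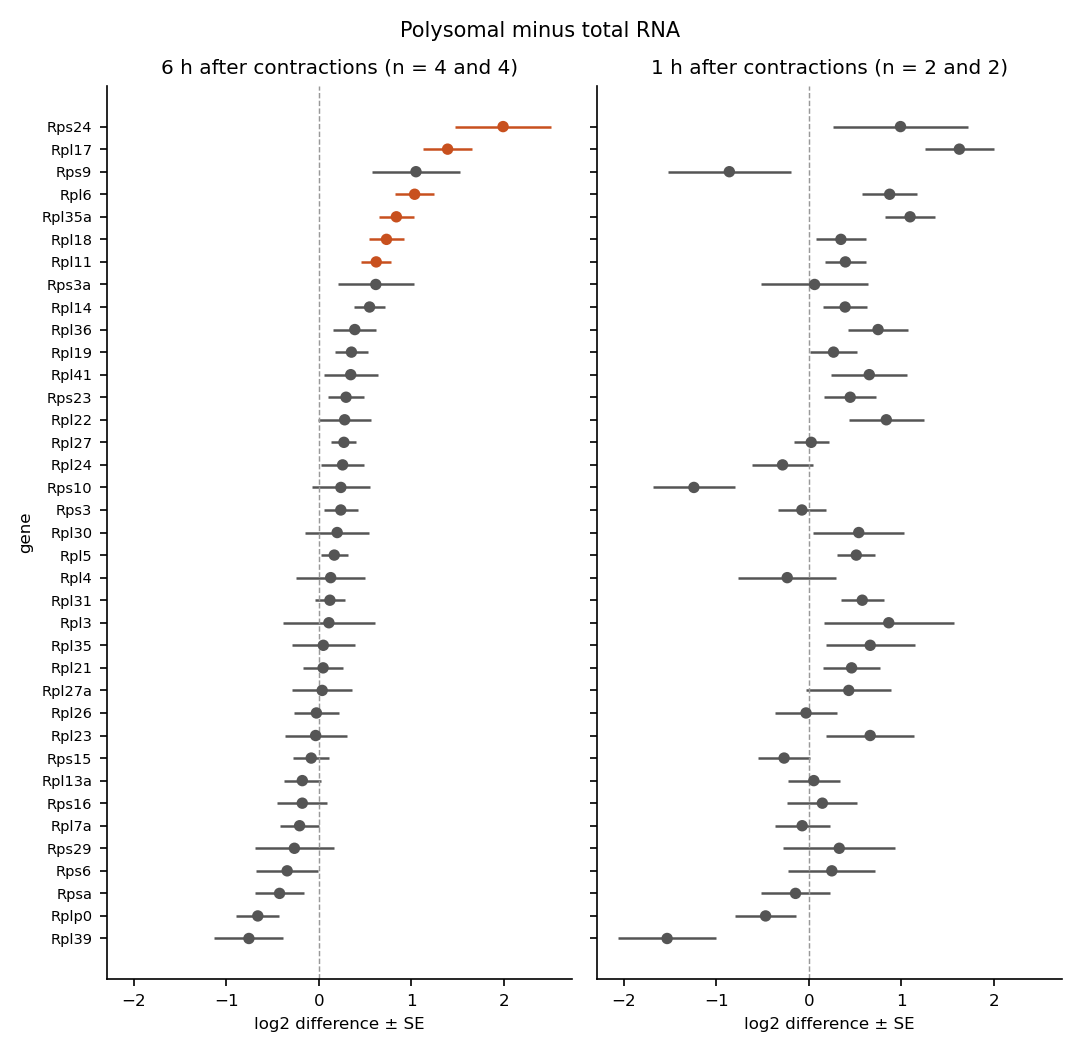
Points give the log2 difference of polysomal minus total RNA for each gene and lines its SE, at 6 h on the left and at 1 h on the right, with the members called at 6 h in orange. Rps9 and Rps10 lie above 0 at 6 h and below 0 at 1 h, and Rpl17 is above 1 at both times.

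The change of this fraction difference between 1 h and 6 h was tested directly. No member passed (limma), nor did any gene (0%), with 2 members and 218 genes at an unadjusted p under 0.05. The largest changes were those of Rps9 (log2 1.91, SE 0.81, adjusted p = 0.849), Rps10 (1.48, SE 0.55, adjusted p = 0.849) and Rps24 (1.00, SE 0.89, adjusted p = 0.871). Without array 2a of the 1 h polysomal group the value was 1.33 for Rps9 and 0.65 for Rps10. In number 3 of the 6 h total group Rps9 was at 1986 and Rps24 at the floor. Without that number the value was 1.36 for Rps9 and 0.46 (SE 0.71) for Rps24. At the other end lay Rpl3 at -0.75 (SE 0.86), Rpl23 at -0.70 (SE 0.58) and Rpl35 at -0.61 (SE 0.59). With a median SE of 0.41 over the members, only 13 of the 37 had a 95% interval within a 2-fold change. For most members the interval thus passed that limit in at least 1 direction.

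Polysomal RNA 6 h after contractions was set against the polysomal control to ask whether contracted muscle carried more ribosomal protein mRNA on ribosomes. No member passed (limma), while 0.384% of all genes did. Only 1 member, Rpl14, had an unadjusted p under 0.05, against 233 genes (5.97%). The members differed by -0.19 to 0.50, with a median of 0.08 against -0.04 for all genes, and 26 of 37 (70.3%) lay above 0 against 38.7% of genes. For 33 of the 37 members the 95% interval of the difference lay within a 2-fold change either way.

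Rpl14, a large subunit protein, gave 2434, 3078, 3543 and 3486 after contractions and 2158, 2157, 2428 and 2405 in the control. It was the only member whose 4 values after contractions lay above all 4 control values, against 2.74% of genes, and no member lay below them throughout, against 2.26% (log2 0.44, SE 0.17, adjusted p = 0.591). Rpl3, which lies near the peptide bond centre, had the largest difference, with 8329, 5521, 12894 and 12115 against 5593, 4561, 10343 and 6805 (log2 0.50, SE 0.50, adjusted p = 1). It was higher after contractions in all 4 pairs of equal number, and with the number as a block its SE was 0.28 (adjusted p = 0.892). The same order in all 4 pairs held for 7 members (18.9%) and for 7.84% of genes, and the reverse for 0 members and 12.6% of genes. Rpl24 followed at 0.31 (SE 0.23), and the lowest were Rpl36 at -0.19 (SE 0.23), Rpl27a at -0.14 (SE 0.32) and Rpl27 at -0.11 (SE 0.13). For Rpl27a, number 3 after contractions gave 1631 on array a and 22686 on array b, and without that array 3a, also left out after seeing the data, its difference was 0.33 (SE 0.25).

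The 6 members that were higher in polysomal than in total RNA showed no such step here. Rps24 gave 1825, 1478, 1101 and 2259 in the polysomal control, around the values after contractions. Rpl18 gave 5891, 7391, 8279 and 7884 and Rpl11 gave 10417, 12488, 11327 and 11965. These control values overlapped those 6 h after contractions in each gene. Rplp0 differed by 0.23 (SE 0.23), Rpsa by 0.13 (SE 0.26), Rps6 by 0.04 (SE 0.33) and Rpl5 by 0.00 (SE 0.15).

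At 1 h, polysomal RNA was set against the 1hr-titled control, with 2 numbers a group and a label that leaves the control's fraction unclear. No member passed and no gene did (0%, limma), with 2 members and 177 genes at an unadjusted p under 0.05. The member median was 0.23 against -0.02 for all genes, and 27 of 37 members (73.0%) lay above 0 against 44.1% of genes. Array 2a of the 1 h polysomal group was also low for Rps3 (5557, with 15508 on array 2b) and Rps15 (3582 and 11228), and without it 33 members lay above 0. The highest were Rpl30 (log2 0.93, SE 0.49; number 1 of the control lay below the floor on both arrays and was raised to it), Rpl3 (0.82, SE 0.70) and Rpl35a (0.81, SE 0.27, adjusted p = 0.99). Rpl35a gave 8814 and 10429 against 4674 and 6437. The lowest were Rps10 (-0.69, SE 0.45), Rpl39 (-0.49, SE 0.53) and Rps29 (-0.39, SE 0.61). Without array 2a Rps10 lay at 0.14 (SE 0.39) and Rpl39 at 0.63 (SE 0.32). Leaving out array 2bA of the control instead moved the values the other way. Then 24 members lay above 0, with Rpl39 at -0.96 (SE 0.57), Rps9 at -0.54 (SE 0.65) and Rps10 at -0.43 (SE 0.44) the lowest.

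**Figure D5:**
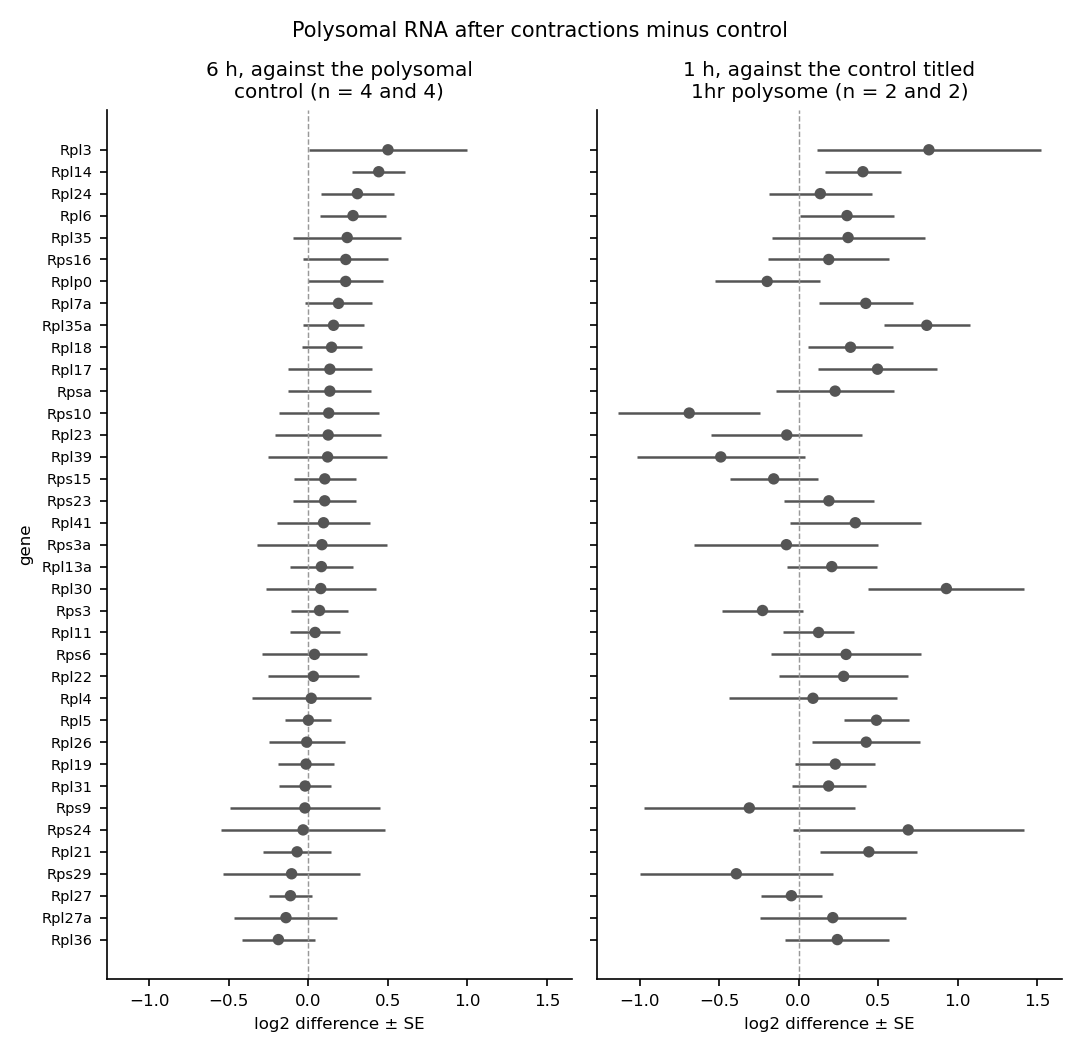
Points give the log2 difference of polysomal RNA after contractions minus its control for each gene and lines its SE, at 6 h on the left and at 1 h on the right. The 6 h differences lie between -0.19 and 0.50 and none of the differences in either panel passed the test.

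Between times, total RNA at 6 h was set against total RNA at 1 h. No member passed, and 0.0256% of genes did; no member and 295 genes had an unadjusted p under 0.05 (limma). The member median was -0.13 against 0.06 for all genes. The lowest were Rps9 (-1.10, SE 0.58), Rps24 (-1.10, SE 0.63) and Rps3a (-0.53, SE 0.50), and the highest Rpl3 (0.60, SE 0.61), Rpl36 (0.47, SE 0.28) and Rps6 (0.33, SE 0.41). In Rps9, Rps24 and Rps3a number 3 of the 6 h total group was the lowest of all 6 total values, at 1986, 130 and 1834.

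Polysomal RNA at 6 h was likewise set against that at 1 h. Again no member passed and no gene did (0%), with 4 members and 238 genes at an unadjusted p under 0.05 (limma). Rps10 (1.15, SE 0.39, adjusted p = 0.654), Rpl39 (1.07, SE 0.46, adjusted p = 0.838) and Rps9 (0.81, SE 0.58) were the highest, and Rpl27a (-0.67, SE 0.40), Rpl22 (-0.58, SE 0.35) and Rpsa (-0.55, SE 0.32) the lowest. Without array 2a of the 1 h group the first 3 gave 0.32 for Rps10, -0.05 for Rpl39 and 0.23 for Rps9, and without array 3a of the 6 h group Rpl27a gave -0.19. Rpl5 differed by -0.51 (SE 0.18, adjusted p = 0.654), from 201 and 222 at 1 h to values of 130, 130, 189 and 151 at 6 h, of which 2 lay at the floor.

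Both controls were compared because their labels differ. No member passed and no gene did (0%), with 1 member and 232 genes at an unadjusted p under 0.05 (limma). That member was Rplp0, at 15453 and 16423 in the 1hr-titled control and at 8230, 5540, 12313 and 10803 in the polysomal control (log2 0.85, SE 0.29, adjusted p = 0.801). Beside it, total RNA gave 15654 to 17728 at 6 h, and 19422 and 18993 at 1 h, and polysomal RNA gave 7863 to 13659 at 6 h, and 17851 and 10808 at 1 h. The arrays of number 2 of the 1hr-titled control differed, at 12580 and, on array 2bA, 21439. Rpl23 (0.71, SE 0.41) and Rps29 (0.69, SE 0.53) were the next highest, and Rps24 (-0.63, SE 0.63), Rpl30 (-0.55, SE 0.43) and Rpl36 (-0.54, SE 0.28) the lowest. For Rpl30 number 1 of the 1hr-titled control was at the floor.

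Total RNA at 1 h set against the 1hr-titled control gave no member, and 0.0513% of genes were called, with 1 member and 435 genes at an unadjusted p under 0.05 (limma). Rpl17 was that member and the lowest (log2 -1.13, SE 0.37, adjusted p = 0.276), with 306 and 435 against 1211 and 526. Its control values differed from each other by more than the lower one differed from total RNA. By array the control gave 1232 and 1190 for number 1, and for number 2 it gave 970 and, on array 2bA, 285. Rpl23 (-0.74, SE 0.47) and Rps29 (-0.72, SE 0.61) came next, and Rpl39 (1.04, SE 0.53), Rps10 (0.55, SE 0.45) and Rps9 (0.55, SE 0.67) were the highest. Without array 2bA of the control, 2 members were called lower, Rpl17 (-1.57, SE 0.31, adjusted p = 0.0189) and Rpl6 (-1.10, SE 0.26, adjusted p = 0.0429), as were 1.79% of genes. Array 2bA and the other array of number 2 gave 4871 and 21184 for Rpl6. Their ratios of the 3′ to the 5′ actin control were 1.07 and 2.57. Why array 2bA differed was not tested.

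A pattern by number, seen after the values were examined, ran through both polysomal groups with 4 numbers. In 13 of 37 members (35.1%) numbers 3 and 4 both lay above numbers 1 and 2 in the 6 h polysomal group and also in the polysomal control, against 7.02% of genes. The order was the reverse in 2 members, Rps9 and Rps10 (5.41%), against 14.2% of genes. Rps16, a small subunit protein, gave 9821 and 10337 for numbers 1 and 2 and 17386 and 16648 for numbers 3 and 4 after contractions. In the control it gave 8081 and 7352, then 16468 and 15661. In total RNA at 6 h the same numbers gave 15312, 13516, 12833 and 18089, without the split. Rpsa followed it, with a log2 step of 0.62 after contractions, 0.99 in the control and 0.19 in total RNA, as did Rplp0, with 0.44, 0.77 and 0.10. For Rpl35 the step was also large in total RNA, at 0.74, 0.69 and 1.43, and likewise for Rpl3, at 0.88, 0.73 and 1.84.

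The titles of these groups differ between the numbers. An array of number 1 and of number 2 carries no letter where those of numbers 3 and 4 carry a and b. The ratio of the 3′ to the 5′ GAPDH control ran from 0.0374 to 1.30 over the arrays of numbers 1 and 2 and from 0.482 to 1.19 over those of numbers 3 and 4. The part of this in the pattern was not tested. Since both groups hold all 4 numbers, the split widens the spread within each group.

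Number 3 of the 6 h total group differed from the 3 other numbers in both directions. Its value lay outside their range for 28 of 37 members (75.7%), 17 below and 11 above, and for 69.3% of all genes. The low members included Rps3a at 1834, Rps9 at 1986 and Rpl4 at 1699, where the others ran from 7658 to 10250, from 6627 to 11400 and from 4694 to 6808. The high members included Rps6 at 22917, Rpl23 at 44512, Rps29 at 53908 and Rpl3 at 20766, where the highest of the others were 14643, 27752, 23978 and 12506. These genes were picked with their values in view. The replicate's median over the members was -0.18 relative to the mean of the others, while that over all genes was 0.28.

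Other genes of the translation machinery and of growth signalling give the setting of the 6 h fraction comparison. None of 9 elongation factors and other TOP mRNAs and none of 6 ribosome biogenesis genes passed, with median differences of -0.09 and 0.20. Of 16 initiation and elongation factors 1 was lower, Eef1a2, the elongation factor of adult muscle (log2 -1.07, SE 0.31, adjusted p = 0.0456). Of 10 S6 kinase and growth signalling genes 1 was higher and 1 lower, the latter Rictor, a core subunit of the second mTOR complex (-1.05, SE 0.20, adjusted p = 0.00671). Mitochondrial ribosomal proteins, which serve translation inside the organelle, were higher in 9 of 14 genes, with a median of 0.78 and Mrpl13 at the top (1.39, SE 0.26, adjusted p = 0.00646). Of 55 nuclear-encoded respiratory chain genes 14 were higher, with a median of 0.39 and Cox6c at the top (1.40, SE 0.35, adjusted p = 0.026). The cytosolic ribosomal protein median in the same comparison was 0.20. In the 8 other comparisons no gene of these 6 lists passed, against the shares of all genes called given above.

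The dimmer probe sets were read beside the brightest ones for the 15 members that have them. Of their 18 dimmer probe sets none passed in the 6 h or 1 h fraction comparison or in the 2 contraction comparisons of polysomal RNA. The sign matched the brightest probe set in 14 of 18 for the fraction difference at 6 h, 11 of 18 at 1 h, 15 of 18 for the 6 h polysomal group against its control and 11 of 18 at 1 h. Besides Rpl6, those with the other sign at 6 h were probe sets of Rpl23, Rpl26 and Rps6.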

How the data were processed

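The authors deposited array intensity values, 8799 probe sets on each of 36 arrays. Software and summary method: not given in the sources used here. Trimmed means (2%) of the arrays lay between 801.0 and 801.9, so that scaling was kept, although its target is unknown. Control probe sets (59) were dropped, values were floored and log2 was taken. Probe sets over the floor on 4 or more arrays (6707) were fitted in 1 model over the 6 groups (limma 3.58.1, R 4.3.3: lmFit, contrasts.fit, eBayes; 12 residual degrees of freedom), two-sided, with Benjamini-Hochberg adjustment over them all and a threshold of 0.05. The fit was checked on simulated data. The number of arrays limits the precision.

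Symbols came from the platform annotation: 7006 probe sets have 1, 308 several and 1426 none. For 36 of the 37 members the current symbol is the same. Members, gene lists and tests were chosen with earlier results of these data known. Named were the called members, the 3 highest and 3 lowest of each comparison, and Rplp0 to Rplp2, Rpl5, Rpl11, Rps6, Rpsa, Rps27a and Rps4x where measured. From other lists the called gene with the largest difference was named.

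Deviations from the group means of equal numbers in the 6 h polysomal group and the polysomal control correlated at 0.456, 0.538, 0.444 and 0.431. Numbers 1 and 2 correlated with each other across these groups at 0.204 and 0.292, and numbers 3 and 4 at 0.374 and 0.0530. Numbers from different sides of that split correlated at -0.178 to -0.514. Pairing by equal number and the split were not told apart. The paired fit called no member there either. Alternatives changed the scaling, floor, filter, choice of probe set, averaging, pairing and replicates used.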

Additional observations from a re-analysis of the deposited data

Results flagged for a closer look

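Within groups of 4 numbers, 3 of the 33 sets of values examined (10 genes and the list median) held a value far from the others, by its gap to the nearest value divided by the range, against a critical ratio of 0.829. Chance gives about 1 in 20. The ratio was 0.901 for Rpl11 in 6 h total RNA, where number 4 was high at 10941. It was 0.905 for Rpl18 in 6 h polysomal RNA, where number 1 was low at 6570. For Rpl5 in 6 h total RNA it was 1, since 3 numbers lay at the floor and number 2 just above it at 139.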

How the results depend on the processing

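Fitting arrays as samples with the number as a random block called 8 members in the 6 h fraction comparison, 7 higher and 1 lower, with 13.2% of genes called, and 2 in that at 1 h (Rpl17 and Rpl35a), with 4.95% of genes. The replicate block called 7 at 6 h (5.13% of genes higher, 5.84% lower) and 1, Rpl35a, at 1 h (1.69% of genes). Equal numbers of those groups correlated at 0.0726 to 0.248 at 6 h, and the labels do not say what equal numbers share. In the other comparisons the block changed the call of no member, but calls of other genes did change. For polysomal RNA at 6 h against 1 h it called 0.308% of genes, against 0% in the main fit. With numbers 1 and 2 of the 6 h set 3 members were called (14.2% of genes), and with numbers 3 and 4, 0 (0% of genes). In the 6 h fraction comparison, fits without 1 number called 3.84% to 16.1% of genes. Leaving out 1 number at a time gave 2 to 8 members at 6 h, 0 to 1 at 1 h (Rpl39, lower; 1.31% of genes) and 0 to 1 for polysomal RNA at 6 h against 1 h (Rpl39, higher; 0.384% of genes), both without number 1 of the 1 h polysomal group, which leaves only number 2, with the low array 2a, assumed to vary like the other groups. Leaving out array 2a of the 1 h polysomal group or array 3a of the 6 h group, both chosen after seeing the data, changed the call of no member. Without array 2bA of the 1hr-titled control, Rpl17 and Rpl6 were lower in total RNA at 1 h (2 members; 2.87% of genes called). The list median relative to all genes fell from 0.38 to 0.15 in the 1 h fraction comparison under quantile normalization. For the change of the fraction difference it was 0.17 with probe sets without a shared suffix against -0.10. The cause was not tested in these cases. The other 54 counts and 58 medians with a number left out, and 84 counts and 87 medians under other settings, moved by at most 1.5 times or by less than 1 SD of the list between replicates.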
